A study of Arabidopsis thaliana with 4 samples.

Results

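The genes described here build the aliphatic part of suberin in Arabidopsis thaliana and carry its precursors out of the cell. They were the 10 loci GPAT5, GPAT7, CYP86A1, CYP86B1, ASFT, FAR1 (AT5G22500), FAR4, FAR5, ABCG2 and ABCG6, chosen by locus code from 27416 gene models, and all 10 were measured. The list was drawn up with the difference between both genotypes of this study already known, so that difference is given below as a description and carries no test. Transcripts were sequenced from whole seedlings of a phytochrome B mutant (phyB) and of the wild type (WT), both of the Col-0 accession. Phytochrome B senses red light in green seedlings. The labels name no phyB allele, which limits the mutant as a model. After 4 days of cold on medium with 1% sucrose, both genotypes were kept 12 h in white light and the next 4 days in red light (60 μmol m-2 s-1), a growth time of 4.5 days. Although 2 samples per genotype are labelled, the values hold a single column for each genotype, which leaves every value without a replicate. Intervals below cover counting error only.

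Suberin is a polyester of glycerol, long-chain hydroxy acids, dicarboxylic acids and ferulic acid. It is laid down against the cell wall in the root endodermis, the periderm and the seed coat, where it limits the passage of water and solutes. Cytochrome P450 enzymes oxidise the end of the acyl chain, glycerol-3-phosphate acyltransferases (GPATs) join the acids to glycerol, a feruloyl transferase adds the phenolic groups, fatty acyl reductases (FARs) make the primary alcohols, and half-size ABC transporters of the G family export the products.

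The totals were 33201394 reads for phyB and 33521717 reads for WT. PHYB (AT2G18790) was detected with 14.1 RPKM (reads scaled by coding length and by the column total) in phyB, against 36.3 RPKM in WT (log2 ratio -1.36, 95% counting interval -1.45 to -1.28). A lesion in this gene need not remove its transcript. Only the WT samples are titled as reanalysed, and a batch effect cannot be told apart from that of the genotype.

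The 300 bases before the annotated transcript start were read from the RefSeq TAIR10.1 reference, because 7 of the 10 genes were at least 2-fold lower in phyB together. A pair of such genes that encode sister enzymes, GPAT5 and GPAT7, is shown with ASFT and with FAR1, the single gene of the set that was higher. Sequences run 5′ to 3′ on the strand of the gene. Capitals mark matches on either strand to ACGTG (the core of the abscisic acid response element) or to an AC element, a MYB-type motif that was searched in 4 forms. One form is ACCTAAC, another form is ACCAAAC, the next form is ACCTACC and the last form is ACCAACC. GPAT5 is chr3:3595394-3595693, GPAT7 chr5:1834747-1835046, ASFT chr5:16431004-16431303 and FAR1 chr5:7470028-7470327, all on the plus strand.
GPAT5: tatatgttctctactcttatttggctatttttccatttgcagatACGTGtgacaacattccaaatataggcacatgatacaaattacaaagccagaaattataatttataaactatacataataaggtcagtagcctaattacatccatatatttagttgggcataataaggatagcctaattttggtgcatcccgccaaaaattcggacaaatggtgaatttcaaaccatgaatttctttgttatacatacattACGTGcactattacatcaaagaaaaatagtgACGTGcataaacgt
GPAT7: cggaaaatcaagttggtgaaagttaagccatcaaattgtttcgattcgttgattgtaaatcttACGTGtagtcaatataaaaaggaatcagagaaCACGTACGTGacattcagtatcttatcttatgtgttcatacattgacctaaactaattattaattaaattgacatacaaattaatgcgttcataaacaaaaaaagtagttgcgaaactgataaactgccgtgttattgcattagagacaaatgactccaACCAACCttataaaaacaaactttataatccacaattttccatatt
ASFT: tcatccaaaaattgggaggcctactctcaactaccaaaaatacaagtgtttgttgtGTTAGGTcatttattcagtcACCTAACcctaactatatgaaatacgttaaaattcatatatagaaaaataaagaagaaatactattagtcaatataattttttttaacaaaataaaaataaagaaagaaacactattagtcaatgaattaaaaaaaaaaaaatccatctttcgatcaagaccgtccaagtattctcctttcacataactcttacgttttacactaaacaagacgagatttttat
FAR1: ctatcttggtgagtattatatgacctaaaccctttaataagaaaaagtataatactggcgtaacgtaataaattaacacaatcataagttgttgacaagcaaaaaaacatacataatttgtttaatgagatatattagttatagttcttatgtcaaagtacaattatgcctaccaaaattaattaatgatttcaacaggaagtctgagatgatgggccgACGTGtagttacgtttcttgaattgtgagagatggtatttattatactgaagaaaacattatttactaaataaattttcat

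ACGTG was found before 4 of the 10 genes, namely GPAT5, GPAT7, FAR1 and FAR4, and before 26.0% of 26690 nuclear genes in windows of the same length. GPAT5 and GPAT7 held 3 matches each, and in GPAT7 a pair of them on opposite strands lay directly side by side. FAR1, which was higher in phyB, held 1 match, as did FAR4, which was lower. Any of the 4 AC elements occurred before GPAT7, ASFT and ABCG2, 3 of the 10 genes, and before 16.1% of all. ASFT held ACCTAAC on both strands, GPAT7 ACCAACC and ABCG2 ACCTACC. The W-box core TTGAC, not capitalised above, lay before 8 of the 10 genes and before 50.4% of all. The G-box CACGTG, which contains ACGTG, lay before none of the 10 and before 7.38% of all. These are matches of letters in 1 window and not sites of binding. The windows of FAR4, ABCG2 and ABCG6 also overlap other annotated genes.

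Of the 10 suberin genes, 7 were at least 2-fold lower in phyB, against 2.18% of the 19295 genes whose mean over both columns reached 1 RPKM. None was 2-fold higher, against 3.20% of all. For 6 of the 10 the 95% counting interval lay wholly beyond 2-fold in the lower direction, as it did for 1.01% of all genes. No suberin gene had an interval wholly beyond 2-fold in the higher direction, against 1.26% of all genes. The members were picked with this contrast in view, so nothing is read from these shares. All 10 passed the filter of a mean of 1 RPKM. CYP86B1, FAR5 and GPAT7 did so only through WT, with 0.968, 0.646 and 0.601 RPKM in phyB. The log2 ratios spanned -3.91 to 0.84 with a median of -1.53, whereas the median of all genes was -0.01. In whole seedlings, fewer cells of a type and less RNA per cell cannot be told apart.

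**Figure D1:**
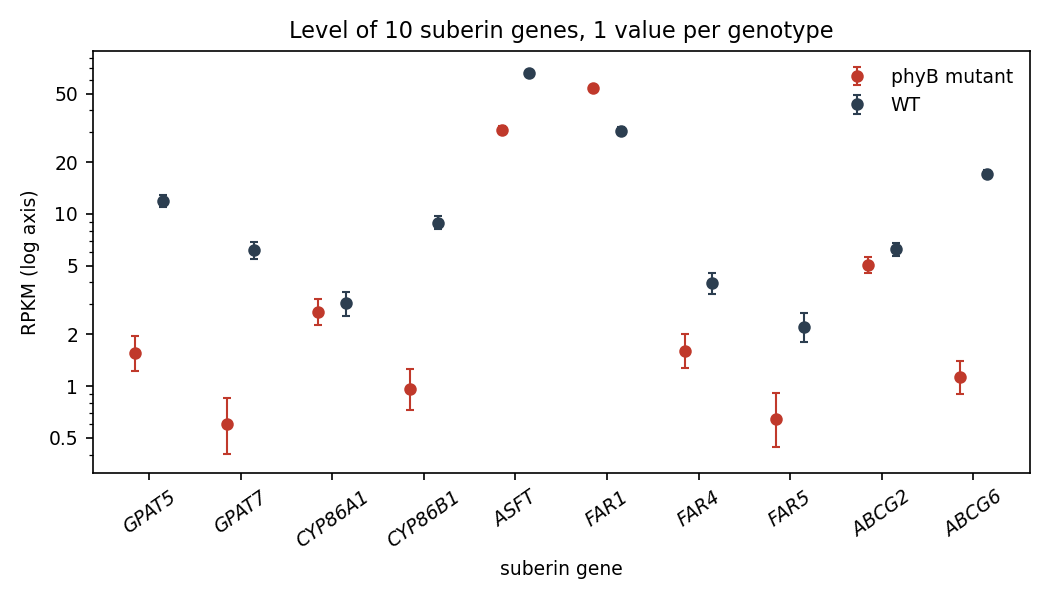
Level of each suberin gene in the phyB mutant (red) and in WT (dark blue) in RPKM on a log axis, 1 value per genotype, with exact 95% Poisson intervals of the read counts. ABCG6 stood at 1.13 RPKM in phyB and 17.0 RPKM in WT, while FAR1 had the higher value in phyB.

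The genes of the oxidation step differed from each other. CYP86B1 (AT5G23190, chromosome 5, positions 7803141 to 7805968, minus strand), a hydroxylase of very-long-chain acyl groups, had 54 reads or 0.968 RPKM in phyB, against 501 reads or 8.90 RPKM in WT. Its log2 ratio was -3.20 (95% counting interval -3.63 to -2.79), a level 9.19-fold lower in phyB. CYP86A1 (AT5G58860, chromosome 5, positions 23765791 to 23768111, minus strand), the hydroxylase of shorter chains in root suberin, had 138 reads or 2.70 RPKM in phyB, against 156 reads or 3.02 RPKM in WT. The log2 ratio of CYP86A1 was -0.16, and its interval from -0.50 to 0.18 included 0. CYP86B1 thus stood at 0.359 times the level of CYP86A1 in phyB, and at 2.95 times that level in WT. The coding sequences of both share 62.5% of aligned bases, with no identical run longer than 11 nt.

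Both acyltransferase genes were lower in phyB. GPAT5 (AT3G11430, chromosome 3, positions 3595694 to 3597952, plus strand), needed for suberin of root and seed coat, had 78 reads or 1.56 RPKM in phyB, against 601 reads or 11.9 RPKM in WT. Its log2 ratio was -2.93 (interval -3.29 to -2.59). GPAT7 (AT5G06090, chromosome 5, positions 1835047 to 1837037, plus strand), the closest relative of GPAT5, had 30 reads or 0.601 RPKM in phyB, against 309 reads or 6.13 RPKM in WT. Its log2 ratio of -3.35 had an interval from -3.94 to -2.81, which overlaps that of GPAT5. GPAT5 stood above GPAT7 in either genotype, 2.59-fold in phyB and 1.94-fold in WT. Their coding sequences share 78.4% of aligned bases, and the longest identical run was 17 nt.

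ASFT (AT5G41040, chromosome 5, positions 16431304 to 16433305, plus strand) encodes the transferase that links ferulic acid to the hydroxy acids of suberin. It had 1409 reads or 30.9 RPKM in phyB, against 3047 reads or 66.2 RPKM in WT. The log2 ratio was -1.10 (interval -1.19 to -1.01), so its fold was the smallest of the 7 genes at 2-fold or more. In RPKM units the decrease was the greatest of the 10, with 35.3 RPKM less in phyB. A gene on the opposite strand, AT5G41050, overlaps the annotated gene outside its coding sequence, and had a log2 ratio of -0.14.

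The reductases did not move together. FAR1 (AT5G22500, chromosome 5, positions 7470328 to 7474133, plus strand) had 2638 reads or 53.8 RPKM in phyB, against 1493 reads or 30.2 RPKM in WT, a log2 ratio of 0.84 (interval 0.74 to 0.93). FAR4 (AT3G44540, chromosome 3, positions 16123426 to 16128030, plus strand) had 79 reads or 1.61 RPKM in phyB, against 196 reads or 3.95 RPKM in WT. The log2 ratio of FAR4 was -1.30 (interval -1.69 to -0.91), and this interval reached inside 2-fold. FAR5 (AT3G44550, chromosome 3, positions 16137576 to 16142270, plus strand) had 32 reads or 0.646 RPKM in phyB, against 110 reads or 2.20 RPKM in WT, a log2 ratio of -1.77 (interval -2.38 to -1.19). All 3 enzymes make the saturated fatty alcohols found in suberin of root, seed coat and wounded leaf. FAR4 and FAR5 lie in the same orientation 9545 nt apart with 1 annotated gene between them, whereas FAR1 is on another chromosome.

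By coding sequence, FAR4 was nearer to FAR1 (77.0% of aligned bases) than to its neighbour FAR5 (73.5%), while FAR5 and FAR1 shared 72.9%. FAR8 (AT3G44560), which follows FAR5 on the chromosome and shares 87.5% of its coding bases, had 0 reads in either genotype, and 0 reads allow up to 3 reads per column. FAR7 (AT5G22420), on chromosome 5 upstream of FAR1, had 0 reads in phyB and 1 read in WT. It lies 37502 nt from FAR1 with 8 annotated genes between them. FAR1 overlaps AT5G22505 on the opposite strand over 573 of its 1476 coding bases. No source used here says whether counting was by strand, so reads of these 2 genes cannot be told apart. FAR4 also overlaps a non-coding gene on the opposite strand, but not in its coding sequence.

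Of the exporters, ABCG6 (AT5G13580, chromosome 5, positions 4370692 to 4373201, plus strand) showed the lowest ratio of the 10 genes. It had 82 reads or 1.13 RPKM in phyB, against 1247 reads or 17.0 RPKM in WT, a log2 ratio of -3.91 (interval -4.25 to -3.59), which is 15.1-fold lower in phyB. Only 7 of the 19295 genes had a lower ratio. ABCG2 (AT2G37360, chromosome 2, positions 15673410 to 15675920, minus strand) acts with ABCG6 and ABCG20 in the suberin of root and seed coat. It had 381 reads or 5.06 RPKM in phyB, against 473 reads or 6.22 RPKM in WT, and its log2 ratio of -0.30 (interval -0.50 to -0.10) was near the lower quartile of all genes, -0.25. ABCG6 stood at 0.224 times the level of ABCG2 in phyB and at 2.74 times that level in WT. A non-coding gene on the opposite strand, AT2G37362, covers 2264 of the 2268 coding bases of ABCG2, so the value of ABCG2 can include its reads. ABCG2 and ABCG20 share 82.2% of aligned coding bases with an identical run of 45 nt, and reads within such a run could come from either gene. ABCG20 (AT3G53510) had 288 reads in phyB, against 399 reads in WT, a log2 ratio of -0.46 (interval -0.68 to -0.23).

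**Figure D2:**
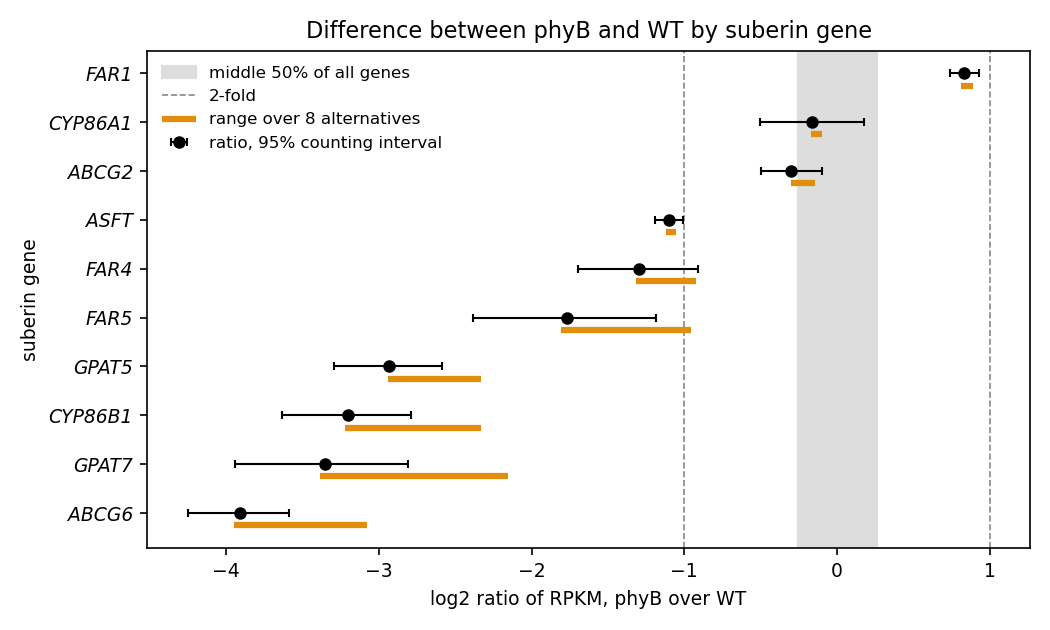
Log2 ratio of RPKM, phyB over WT, for each suberin gene (points) with the exact 95% counting interval (black bars) and the range over 8 alternative scalings, trend corrections and pseudocounts (orange bars). The grey band is the middle 50% of all genes, from -0.25 to 0.26, and dashed lines mark 2-fold. CYP86A1 lies inside the band, ABCG2 just below it, and 7 genes lie beyond the left dashed line.

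The order of levels within a genotype differed between the columns. In phyB the order by RPKM was FAR1, ASFT, ABCG2, CYP86A1, FAR4, GPAT5, ABCG6, CYP86B1, FAR5 and GPAT7. From FAR4 down to GPAT7 the interval of each gene overlapped that of the next one. In WT the order was ASFT, FAR1, ABCG6, GPAT5, CYP86B1, ABCG2, GPAT7, FAR4, CYP86A1 and FAR5. There the neighbours with overlapping intervals were ABCG2 with GPAT7, FAR4 with CYP86A1, and CYP86A1 with FAR5. Percentiles of level were taken within the 19295 genes only. ABCG6 was at percentile 1.89 in phyB and 54.2 in WT. GPAT5 was at percentile 5.15 in phyB and 44.0 in WT, and ASFT at percentile 71.0 in phyB and 85.4 in WT. The filter had removed genes low in both columns, so a kept gene near 1 RPKM in phyB ranks near the bottom there. These percentiles are therefore not ranks among all 27416 gene models.

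Summed over the 10 genes, the level was 99.0 RPKM in phyB and 155.7 RPKM in WT. FAR1 made up 54.4% of this sum in phyB and 19.4% in WT, and ASFT 31.2% in phyB and 42.5% in WT. Without FAR1 the sum was 45.2 RPKM in phyB, against 125.5 RPKM in WT, or 2.78-fold lower in phyB. Without FAR1 and ASFT the other 8 genes summed to 14.3 RPKM in phyB and 59.3 RPKM in WT, or 4.16-fold lower in phyB. The set total therefore rests mainly on FAR1 and ASFT, and it understates the difference of the GPAT genes, CYP86B1 and ABCG6.

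**Figure D3:**
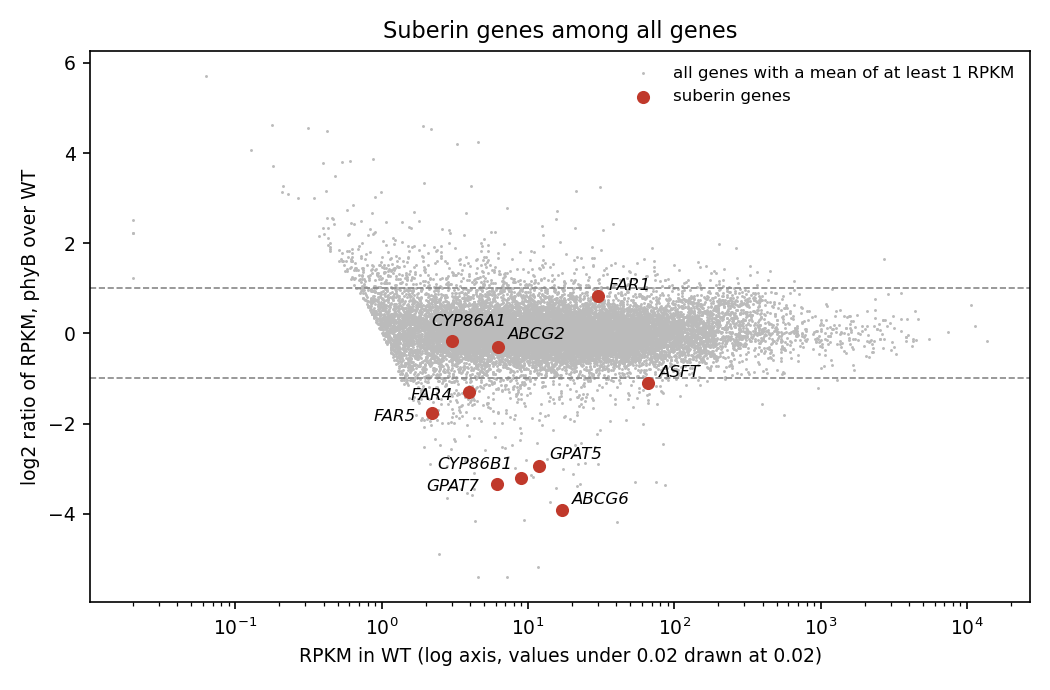
Log2 ratio of RPKM (phyB over WT) against the RPKM level in WT on a log axis for the 19295 genes described (grey) and the 10 suberin genes (red). ABCG6, GPAT7, CYP86B1 and GPAT5 lie below the bulk of genes at WT levels of 6.13 to 17.0 RPKM, and CYP86A1 and ABCG2 lie within it.

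A further list of 15 genes was drawn up for suberin formation and held no members. It was chosen with earlier results of these data known, and its genes are not all particular to suberin. Of the 15, 13 had ratios below 0, against 51.0% of all genes. At least 2-fold lower in phyB were 3 of the 15, against 2.18% of all genes. The median log2 ratio of the 15 was -0.62, and none was 2-fold higher, against 3.20% of all. ABCG16 (AT3G55090), a half-size ABC transporter, had 1.16 RPKM in phyB, against 6.68 RPKM in WT (log2 ratio -2.53, interval -2.88 to -2.19). Its close relative ABCG1 (AT2G39350) had 3.44 RPKM in phyB, against 7.84 RPKM in WT (-1.19, interval -1.41 to -0.97). The third was AT5G08250, the gene nearest in coding sequence to CYP86B1, with 0.328 RPKM in phyB, against 3.80 RPKM in WT (-3.53, interval -4.37 to -2.80). It was named after its values were seen. A local BLAST alignment of both genes had 78.9% identity over 86.9% of the CYP86B1 coding sequence. The elongase genes KCS1, KCS2 and KCS20, which make very-long acyl chains, had log2 ratios of -0.63, -0.62 and -0.71. PAS2 and FACT, at 0.15 and 0.28, were the 2 genes with ratios above 0. FACT, a transferase of caffeic acid to fatty alcohols, had an interval from -0.20 to 0.77, which includes 0.

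Of 10 transcription factor genes known to control suberin or the endodermis, 7 had a mean of at least 1 RPKM. All 7 had ratios below 0, against 51.0% of all genes, with a median of -0.28. MYB41 reached that mean only through WT, with 0.106 RPKM in phyB and 4.53 RPKM in WT. The list was chosen with earlier results of these data known, so nothing is read from this share. At least 2-fold lower in phyB were MYB9, MYB107 and MYB41, against 2.18% of all genes. None was 2-fold higher, against 3.20% of all. MYB9 (AT5G16770) and MYB107 (AT3G02940) are activators of suberin genes in the seed coat. MYB9 had 50 reads or 1.49 RPKM in phyB, against 199 reads or 5.87 RPKM in WT (log2 ratio -1.98, interval -2.46 to -1.53). MYB107 had 51 reads in phyB, against 145 reads in WT (log2 ratio -1.49, interval -1.98 to -1.02). MYB41 (AT4G28110), an activator whose overexpression leads to ectopic suberin, had 3 reads in phyB, against 129 reads in WT, a log2 ratio of -5.41 with a wide interval from -7.71 to -3.83. MYB107 and MYB41 were named after their values were seen. MYB92 (-0.23), MYB70 (-0.28), ANAC046 (-0.28) and MYB36, the main factor of Casparian strip formation (-0.18), were within 2-fold. MYB53, MYB93 and MYB39 were below 1 RPKM and thus outside the 7, with log2 ratios of -1.14, 0.07 and -1.99.

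**Figure D4:**
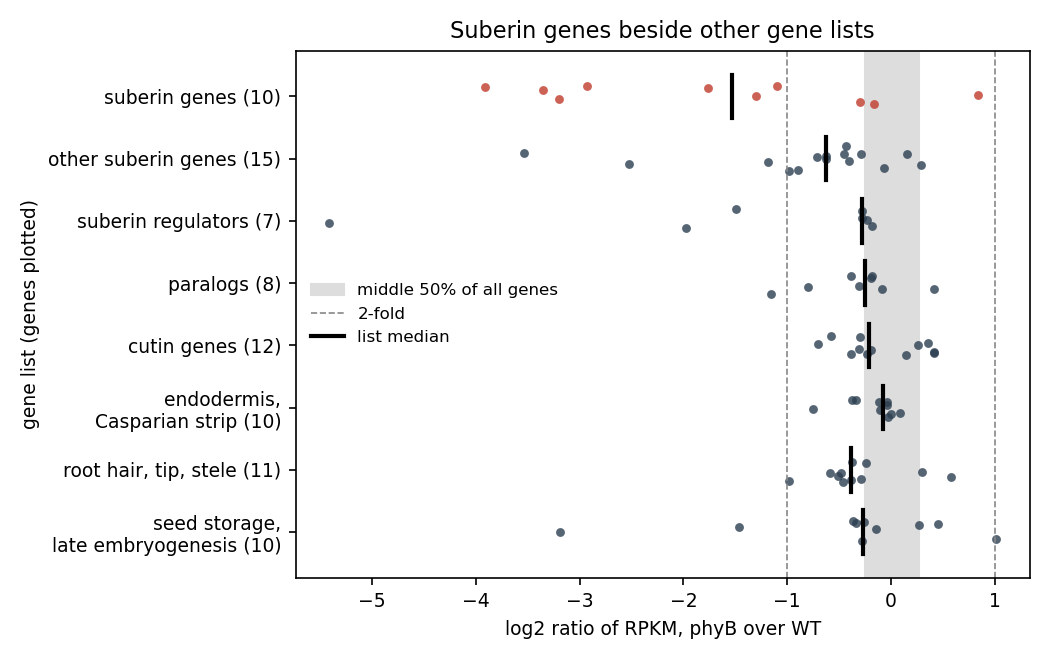
Log2 ratio of RPKM (phyB over WT) of each gene at or above 1 RPKM on average in the suberin set (red) and 7 other gene lists (dark blue), with list medians as black bars, the middle 50% of all genes in grey and 2-fold as dashed lines. The suberin genes have a median of -1.53, and the endodermis and Casparian strip genes one of -0.08.

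A list of 15 paralogs of the members held GPAT, CYP86A and FAR genes, but not AT5G08250, ABCG1 or ABCG16, which are given above. Of these 15 genes 8 were measured at 1 RPKM or more. Of the 8, GPAT3 (AT4G01950) alone was 2-fold lower in phyB, at 35.5 RPKM in phyB and 79.5 RPKM in WT (log2 ratio -1.16). The median of the 8 was -0.25, and none was 2-fold higher. Of all genes, 2.18% were at least 2-fold lower and 3.20% at least 2-fold higher. GPAT4 (-0.38) and GPAT8 (-0.31), which act in cutin, the polyester of the shoot surface, were within 2-fold. Of 14 genes listed under cutin, 12 were measured at 1 RPKM or more. None of the 12 differed 2-fold in either direction, and their median was -0.21. LTPG1, a lipid transfer protein gene and the gene of highest level on this list, had 358.4 RPKM in phyB, against 440.1 RPKM in WT (-0.30). The paralog and cutin lists share 5 genes.

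Markers of the endodermis and of other root cell types were measured beside these genes. All 10 endodermis and Casparian strip genes passed 1 RPKM, and 9 had ratios below 0, against 51.0% of all genes. None of the 10 differed 2-fold, against 2.18% of all genes lower and 3.20% higher, and the median was -0.08. Their summed level was 823.6 RPKM in phyB and 906.1 RPKM in WT. CASP1, which encodes a scaffold protein of the Casparian strip, had 239.1 RPKM in phyB, against 224.9 RPKM in WT, a log2 ratio of 0.09. CASP5 had the lowest ratio of this list, -0.75. Of 14 root hair, root tip and stele markers, 11 passed 1 RPKM, and 9 of these had ratios below 0, against 51.0% of all genes. None of the 11 differed 2-fold, and the median was -0.38. The lowest ratio of this list was that of SKOR, a potassium channel gene of the stele, with 676 reads in phyB, against 1350 reads in WT (log2 ratio -0.98, interval -1.12 to -0.85). PHO1, a phosphate exporter gene of the stele, was at -0.59. SKOR and PHO1 were named after their values were seen. The summed level of all 14 markers, 2502.8 RPKM in phyB, against 3447.3 RPKM in WT, came mostly from BGLU23, a root beta-glucosidase gene, with 2383.6 RPKM in phyB and 3279.6 RPKM in WT. Its log2 ratio was -0.46.

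Genes of seed storage, oil bodies and late embryogenesis were examined as well. Of 11 genes 10 passed 1 RPKM, with a median of -0.27. At least 2-fold lower were 2 of these, against 2.18% of all genes, and 1 was at least 2-fold higher, against 3.20%. The 2-fold lower ones were the late embryogenesis genes EM6 (AT2G40170, 1.19 RPKM in phyB and 10.8 RPKM in WT, log2 ratio -3.18, interval -4.23 to -2.28) and EM1 (-1.46, interval -2.46 to -0.55). The higher one was the storage albumin gene SESA1 (1.01, interval 0.37 to 1.69). The intervals of EM1 and SESA1 reached inside 2-fold. EM1 and SESA1 were named after their values were seen. The summed level of this list was 35.3 RPKM in phyB and 48.2 RPKM in WT. The part of the root and seed lists in the ratios of the suberin genes was not tested.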

How the data were processed

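Oligo(dT) beads were used to select mRNA from whole seedlings, per the labels' protocols. Groups follow the labelled genotype. The authors' reads are estimated counts, with 0.5 written for 0 reads (4100 models in phyB, 4164 in WT), set to 0 here. It is not stated whether a column combines both samples, so no SD is given. The deposited RPKM follow from the authors' reads, the column total and a coding length, and the implied lengths were whole numbers within 0.001 nt. Rounded to whole nt, 96.8% of 23560 nuclear lengths compared equalled the reference. TAIR10 is the build named in the submitters' processing notes. The sources used here name no aligner, counter or strand setting. Positions and sequences are from RefSeq TAIR10.1, where all 10 members matched by locus.

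Ratios are log2 of RPKM, phyB over WT, without pseudocount. Genes averaging 1 RPKM or more over both columns were described, so a gene below 1 RPKM in 1 column could pass through the other. A column of 0 reads took a floor of 3 reads, and no ratio was formed where both columns were at or under the floor. The 95% intervals are exact (Clopper-Pearson for ratios, Poisson for levels), and PCR copies are not independent molecules. With 1 value per genotype no test was made. The ratio step was run on simulated data that held counting error only, so variation between samples was not tested. Members, the 7 other lists (89 entries) and motifs were chosen with earlier results of these data known. Named by rule were the members and paralogs near them on the chromosome. The rule also named, per list, up to 4 genes at 2-fold with 5 RPKM in either genotype or else the gene of highest mean. Others were named for their role in a list or after their values were seen. Biopython 1.88 gave identities by global alignment, except that of AT5G08250. BLAST 2.17.0 gave that identity and the nearest relative, with no copy of 90% identity over 80% of the length for any member. Alternatives were TMM, RLE and upper-quartile factors (edgeR 4.0.16), quantile normalization, totals without organelle genes, removal of a lowess trend on coding length (span 0.3, statsmodels 0.14.6), pseudocounts of 1 and 0.1, and other filters and thresholds.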

Additional observations from a re-analysis of the deposited data

How the results depend on the processing

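Of 80 recomputed ratios (10 suberin genes under 8 alternatives), none changed sign and 75 stayed inside the counting interval. A scaling by 1 constant or a pseudocount allows little else. The remaining alternatives were quantile normalization and removal of the length trend, and under each all 10 ratios stayed inside the counting interval. The 5 ratios outside the interval were on the log2(RPKM + 1) scale, which compresses low levels. They were ABCG6 at -3.08, GPAT5 and CYP86B1 at -2.33, GPAT7 at -2.16 and FAR5 at -0.96. The count of 7 genes at 2-fold lower became 5 on that scale, 5 at an absolute log2 ratio of 1.5 and 6 where the whole counting interval lay beyond 2-fold. The share of all genes at 2-fold or more was 1.28% lower and 1.94% higher in phyB with the pseudocount of 1, 3.84% and 5.70% without a filter, and 1.32% lower at a mean of at least 5 RPKM. With no filter the 2-fold lower genes numbered 5 regulators, 3 paralogs and 1 cutin gene. At a mean of at least 5 RPKM they numbered 1 gene of the further suberin list, 0 regulators and 1 seed gene. MYB9, MYB107, MYB41, ABCG16, AT5G08250, EM1 and SESA1 were below that mean, so they left the counts with unchanged ratios. On the log2(RPKM + 1) scale 1 seed gene was 2-fold lower. The 2-fold higher seed genes numbered 0 with the length trend removed, with either pseudocount and at 5 RPKM. Low read counts limit GPAT7 and FAR5, with about 30 reads in phyB. Fewer phyB reads lay behind the ratios of AT5G08250 (16), EM1 (14) and EM6 (11), and MYB41 (3) is limited most. No paired analysis was possible because the columns are 1 per genotype and unnumbered, so runs without a replicate and with DESeq2 were not made either.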
